A study of Mus musculus with 50 samples.

Results

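The cyclin-dependent kinase (CDK) inhibitors *Cdkn2a*, *Cdkn2b*, *Cdkn2c*, *Cdkn2d*, *Cdkn1a* and *Cdkn1b* are described here as 6 of the 18055 genes in the normalized count table. They were taken by name, with earlier results of these data already known. All 6 were found in the table and in the annotation of the mm9 mouse genome. The data came from mouse embryonic stem cells (ESCs) with different defects of Polycomb Repressive Complex 2 (PRC2), and the comparisons address whether losing its methyltransferases differs from losing their activity alone. RNA-seq covered 4 lines with 2 libraries each, and peak lists of chromatin immunoprecipitation (ChIP-seq) covered 5 lines with 1 library per line and target.

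The parental line was E14, called WT, a mouse ESC line kept with serum, LIF and inhibitors of GSK3β and MEK. *Ezh2* KO cells carried a CRISPR/Cas9 deletion spanning the *Ezh2* gene, and *Ezh1/2* dKO cells carried deletions of both *Ezh1* and *Ezh2*. *Ezh2* Y726D and *Ezh2* R685C cells carried a point substitution in the endogenous *Ezh2* gene and also lacked *Ezh1*. The labels of the SUZ12 and H3K27me3 libraries of *Ezh2* Y726D do not repeat the *Ezh1* deletion, and these libraries were taken as the same line. The edited lines were isolated as clones, and the number of clones behind each line is not given in the sources used here. No RNA-seq of *Ezh2* R685C was analysed here. HA ChIP-seq used *Ezh1/2* dKO cells transfected with a vector for HA-tagged human wild-type EZH1, called HA-EZH1, and *Ezh1/2* dKO cells without it. The transfected cells were collected after a short puromycin selection.

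PRC2 places methyl groups on lysine 27 of histone H3 through EZH2 or its paralog EZH1, and SUZ12 is a core subunit that marks where the complex sits. H3K27me3 is found over silent developmental genes, whereas acetylation of the same residue, H3K27ac, is found over active promoters and enhancers. CDK inhibitors slow the cell cycle. The INK4 proteins, encoded by *Cdkn2a* to *Cdkn2d*, bind CDK4 and CDK6, and the CIP/KIP proteins p21 (*Cdkn1a*) and p27 (*Cdkn1b*) act on cyclin-CDK complexes more widely. The *Cdkn2a*-*Cdkn2b* locus is a classic Polycomb target in fibroblasts, where it is derepressed during senescence. *Cdkn2a* encodes both p16 (Ink4a) and p19 (Arf) from separate first exons, and Arf stabilizes p53, which activates *Cdkn1a*.

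The edited genes matched the labels of the 8 RNA-seq libraries. *Ezh2* averaged 572 ± 36.6 normalized counts in WT (SD, n = 2 here and for every line mean below), 1.01 ± 0.0551 for *Ezh2* KO, 1.30 ± 0.673 for *Ezh1/2* dKO and 517 ± 135 for *Ezh2* Y726D. *Ezh1* averaged 302 ± 107 in WT, 375 ± 4.34 for *Ezh2* KO, 17.2 ± 4.53 for *Ezh1/2* dKO and 19.9 ± 5.95 for *Ezh2* Y726D. Library totals ran from 3604120 to 5181550 reads. The summed level of 10 pluripotency markers, *Pou5f1* and *Nanog* among them, lay between 15581 and 19979 normalized counts in every library, and none of the 10 was called between any pair of lines.

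*Cdkn2c*, *Cdkn2a* and *Cdkn1a* carried the chromatin results, and their sequences are shown with every CG dinucleotide in capitals, since PRC2 in ESCs is known for binding CpG-rich DNA. The first 2 are windows of 300 bases centered on the highest points of SUZ12 peaks in WT, read from the mm9 genome. They show the DNA at the center of both SUZ12 regions at and near *Cdkn2c*. The first lies at the start sites of *Cdkn2c* (chr4:109338612-109338911, minus strand), and the second downstream of *Cdkn2c* (chr4:109329901-109330200, minus strand). They hold 28 and 19 CG dinucleotides.
Cdkn2c start-site SUZ12 summit: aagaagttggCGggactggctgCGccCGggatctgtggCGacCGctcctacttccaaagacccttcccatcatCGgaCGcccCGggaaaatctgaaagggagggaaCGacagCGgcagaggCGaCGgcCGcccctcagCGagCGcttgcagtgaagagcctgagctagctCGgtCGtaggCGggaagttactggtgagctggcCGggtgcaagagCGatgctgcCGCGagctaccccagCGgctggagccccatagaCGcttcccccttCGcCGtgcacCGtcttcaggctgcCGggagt
Cdkn2c downstream SUZ12 summit: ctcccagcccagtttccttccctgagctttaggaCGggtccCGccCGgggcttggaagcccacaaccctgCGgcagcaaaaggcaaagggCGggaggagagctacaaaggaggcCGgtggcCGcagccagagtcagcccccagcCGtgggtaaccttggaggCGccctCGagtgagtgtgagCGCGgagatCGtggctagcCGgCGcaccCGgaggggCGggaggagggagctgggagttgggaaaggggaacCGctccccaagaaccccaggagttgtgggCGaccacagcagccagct

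The other 3 are promoters, from 250 bases before to 50 bases after the start of a RefSeq transcript. They were taken from the RefSeq table for build GRCm38.p6 and placed in mm9 by an exact and single match, as were all 9 promoters of the 6 genes. The Arf start (chr4:88940474-88940773, minus strand) and the Ink4a start (chr4:88928047-88928346, minus strand) belong to 1 gene but differ in base composition. The main *Cdkn1a* start (chr17:29230464-29230763, plus strand) is shown as the promoter of the most abundant inhibitor, which had no SUZ12 peak in any line.
Cdkn2a Arf start: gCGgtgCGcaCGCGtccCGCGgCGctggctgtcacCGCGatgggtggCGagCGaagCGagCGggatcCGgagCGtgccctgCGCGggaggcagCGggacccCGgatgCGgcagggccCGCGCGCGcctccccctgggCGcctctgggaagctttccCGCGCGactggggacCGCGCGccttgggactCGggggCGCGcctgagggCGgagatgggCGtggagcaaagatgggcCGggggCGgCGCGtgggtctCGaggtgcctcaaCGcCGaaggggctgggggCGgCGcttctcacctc
Cdkn2a Ink4a start: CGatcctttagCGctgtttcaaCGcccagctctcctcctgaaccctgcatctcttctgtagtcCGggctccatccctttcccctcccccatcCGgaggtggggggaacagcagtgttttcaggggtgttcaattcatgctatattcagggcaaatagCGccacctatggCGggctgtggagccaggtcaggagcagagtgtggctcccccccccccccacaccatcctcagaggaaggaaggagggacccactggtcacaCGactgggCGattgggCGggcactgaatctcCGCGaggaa
Cdkn1a main start: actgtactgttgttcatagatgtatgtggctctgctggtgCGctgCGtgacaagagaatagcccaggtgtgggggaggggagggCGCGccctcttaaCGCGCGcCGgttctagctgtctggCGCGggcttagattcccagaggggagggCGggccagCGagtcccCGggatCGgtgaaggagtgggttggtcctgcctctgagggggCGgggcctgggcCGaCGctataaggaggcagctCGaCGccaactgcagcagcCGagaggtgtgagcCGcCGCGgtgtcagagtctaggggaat

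The Arf promoter holds 45 CG dinucleotides, more than 98.1% of the 32851 RefSeq promoters of the same length, whose median is 7. The Ink4a promoter holds 12, more than 60.4% of them. The upstream *Cdkn2c* promoter holds 33, that of *Cdkn1b* 30, the main *Cdkn1a* promoter 23, that of *Cdkn2d* 22 and that of *Cdkn2b* 18. The downstream start of *Cdkn2c* has 8, and the upstream start of *Cdkn1a* has 2, fewer than any other promoter of the 6 genes. The *Cdkn1b* and main *Cdkn1a* promoters, with 30 and 23, had no SUZ12 peak within 5 kb, and neither did those of *Cdkn2d* and *Cdkn2b*.

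The 6 genes differed widely in abundance. Divided by exon length, which makes levels of different genes comparable, the WT mean was 478 ± 29.5 normalized counts per kb for *Cdkn1a*, 57.6 ± 13.4 for *Cdkn1b*, 30.2 ± 6.15 for *Cdkn2b*, 24.4 ± 8.97 for *Cdkn2a*, 8.36 ± 0.0450 for *Cdkn2d* and 0 for *Cdkn2c*. The order of *Cdkn2b* and *Cdkn2a* in WT was within their spread, since the libraries of the pair overlapped at 25.9 to 34.6 and 18.1 to 30.8 per kb. In *Ezh1/2* dKO the per-kb mean of *Cdkn2a* was 58.5 ± 3.08, above *Cdkn1b* at 54.5 ± 2.85 and *Cdkn2b* at 42.9 ± 2.95. The libraries of *Cdkn2a* (56.4 to 60.7 per kb) and *Cdkn1b* (52.5 to 56.5 per kb) overlapped there, so their order was within the spread. *Cdkn1a* was the highest and *Cdkn2c* the lowest of the 6 in each of the 4 lines.

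No inhibitor was called in any of the 6 comparisons among the 4 lines by limma, where a call needed both an adjusted p below 0.1 and a log2 difference of 1 or more in size. Over all 13872 genes tested, 0.404% were called in *Ezh2* KO against WT, 4.02% in *Ezh1/2* dKO against WT and 2.72% in *Ezh2* Y726D against WT. The shares were 3.58% for *Ezh1/2* dKO against *Ezh2* KO, 3.53% for *Ezh2* Y726D against *Ezh2* KO and 1.68% for *Ezh2* Y726D against *Ezh1/2* dKO. *Cdkn2c* stayed below the minimum mean of 5 normalized counts, so 5 of the 6 genes were tested. Without adjustment, limma gave p under 0.05 for *Cdkn2a* in *Ezh1/2* dKO against WT and against *Ezh2* Y726D, for *Cdkn1a* in *Ezh2* Y726D against WT, and for *Cdkn1b* in *Ezh2* Y726D against *Ezh2* KO. Of the 5 genes, 0 passed that limit in *Ezh2* KO against WT and in *Ezh1/2* dKO against *Ezh2* KO. Over all genes the share under 0.05 against WT was 8.83% for *Ezh2* KO, 18.6% for *Ezh1/2* dKO and 14.3% for *Ezh2* Y726D. It was 13.4% for *Ezh1/2* dKO and 15.8% for *Ezh2* Y726D against *Ezh2* KO, and 13.1% between *Ezh2* Y726D and *Ezh1/2* dKO. edgeR called 0 of the 5 in every comparison, and DESeq2 called 1, *Cdkn1b* in *Ezh2* Y726D against *Ezh2* KO. The study calls its replicates biological without saying whether the 2 libraries of a line came from separate cultures or clones, so these p-values measure only the spread between these libraries. In bulk RNA, fewer cells that express a gene and less RNA per cell cannot be told apart.

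**Figure D1:**
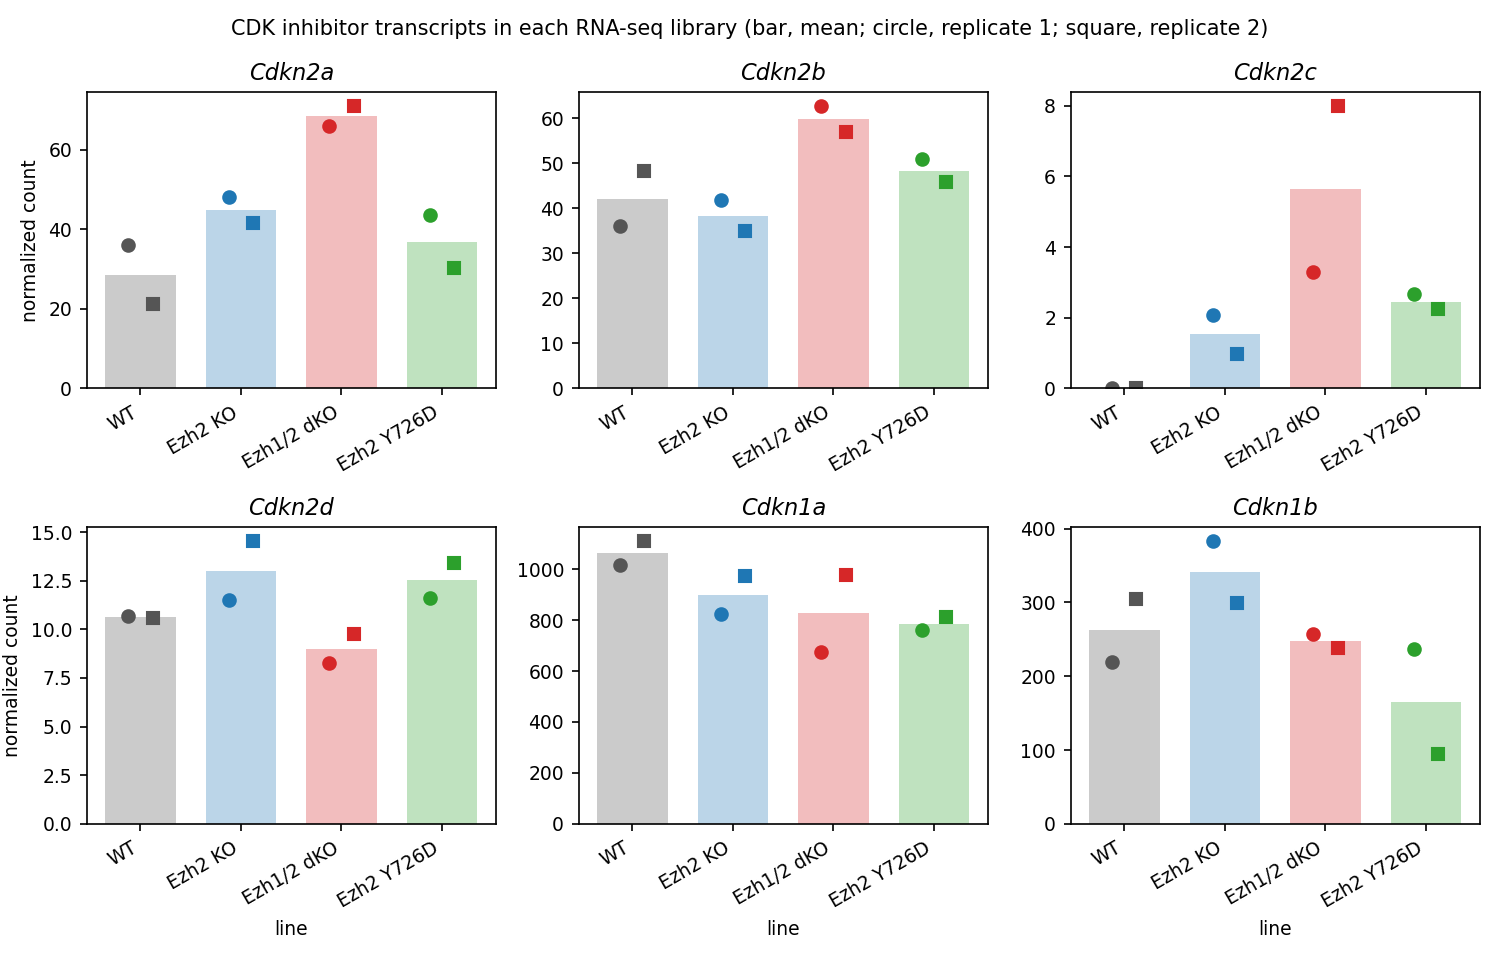
Normalized counts (vertical axis, from 0, with its own scale in each panel) of the 6 inhibitors in the 4 lines (horizontal axis). Bars are means of 2 libraries, circles replicate 1 and squares replicate 2. Both *Ezh1/2* dKO libraries lie above all others for *Cdkn2a*, *Cdkn2b* and *Cdkn2c*, and *Ezh2* Y726D replicate 2 is the lowest library for *Cdkn1b*. The share of all genes with such a separation was not counted.

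*Cdkn2a* (ENSMUSG00000044303.5, chr4:88920377-88940557 in mm9, minus strand) had 36.0 and 21.2 normalized counts in WT, 48.1 and 41.6 in *Ezh2* KO, 65.9 and 71.0 in *Ezh1/2* dKO, and 43.7 and 30.2 in *Ezh2* Y726D. The *Ezh1/2* dKO libraries were the highest pair and overlapped with no other line, whereas *Ezh2* Y726D overlapped with WT and with *Ezh2* KO. The share of all genes with *Ezh1/2* dKO above every other library was not counted. For *Ezh1/2* dKO against WT limma gave a 2.42-fold difference, a log2 fold change of 1.28 (SE 0.381, 95% interval 0.42 to 2.13, adjusted p = 0.120). This missed the threshold, although the interval lay above 0. The call rested on which libraries were in the fit, since the adjusted p was 0.0902 without WT replicate 1, 0.0999 without *Ezh2* Y726D replicate 1 and 0.0963 without *Ezh2* Y726D replicate 2. For *Ezh2* KO against WT the log2 fold change was 0.67 (adjusted p = 0.663), and for *Ezh2* Y726D against WT it was 0.38 (adjusted p = 0.748). *Ezh2* Y726D lay below *Ezh1/2* dKO, with a log2 fold change of −0.89 (adjusted p = 0.361). The count does not say which product changed, because the gene's 3 annotated transcripts, with starts 12427 bp apart for Ink4a and Arf, were counted together.

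*Cdkn2b* (ENSMUSG00000073802.4, chr4:88952198-88956941, minus strand) encodes p15 and starts 16418 bp upstream of Arf. It had 36.0 and 48.1 normalized counts in WT, 41.8 and 34.8 in *Ezh2* KO, 62.6 and 56.8 in *Ezh1/2* dKO, and 50.8 and 45.9 in *Ezh2* Y726D. *Ezh1/2* dKO was again the highest pair without overlap, a pattern whose share over all genes was not counted. WT overlapped with both *Ezh2* KO and *Ezh2* Y726D. The log2 fold changes against WT were −0.12 for *Ezh2* KO, 0.51 for *Ezh1/2* dKO and 0.21 for *Ezh2* Y726D (SE 0.327, limma adjusted p = 0.946, 0.436 and 0.855). The coding parts of *Cdkn2a* and *Cdkn2b* are related in sequence, so reads in the shared stretches could have been split between them, and the split was not tested.

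*Cdkn2c* (ENSMUSG00000028551.8, chr4:109333481-109339794, minus strand) encodes p18. It had 0 and 0 reads in WT, 2 and 1 in *Ezh2* KO, 4 and 9 in *Ezh1/2* dKO, and 3 and 2 in *Ezh2* Y726D. Every library of the 3 mutant lines held at least 1 read, against none in WT, and the share of all genes with this pattern was not counted. The pooled *Ezh1/2* dKO level was 5.56 normalized counts (exact 95% Poisson interval 2.96 to 9.503, counting error only). Pooled over both WT libraries, a count of 0 allows up to 3 reads or 1.68 normalized counts. The pooled *Ezh1/2* dKO level was 3.31-fold that limit, and the lower end of its interval was 1.76-fold that limit. An exact 95% Poisson interval for WT reached 2.06 normalized counts. The intervals of *Ezh2* Y726D (0.806 to 5.79, from 5 reads) and *Ezh2* KO (0.311 to 4.41, from 3 reads) both took in the limit of WT. With no filter on low genes, limma called *Cdkn2c* in *Ezh1/2* dKO (adjusted p = 0.0678), whereas edgeR did not (adjusted p = 0.144) and DESeq2 gave no adjusted p. Between mutant lines, the same unfiltered limma fit gave a log2 fold change of 1.33 for *Ezh1/2* dKO against *Ezh2* KO (SE 0.554, unadjusted p = 0.0415, adjusted p = 0.313) and called none of the 3 comparisons of *Cdkn2c*.

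*Cdkn2d* (ENSMUSG00000066860.6, chr9:21092907-21095653, minus strand) encodes the INK4 protein p19INK4d, which is not the Arf product. It had 10.7 and 10.6 normalized counts in WT, 11.501 and 14.5 in *Ezh2* KO, 8.24 and 9.77 in *Ezh1/2* dKO, and 11.6 and 13.4 in *Ezh2* Y726D. The line means ran from 9.005 ± 1.08 to 13.01 ± 2.13. Unlike the other INK4 genes, it had its lowest mean in *Ezh1/2* dKO. The log2 fold changes against WT were 0.26 for *Ezh2* KO, −0.22 for *Ezh1/2* dKO and 0.21 for *Ezh2* Y726D (SE 0.477, limma adjusted p = 0.912, 0.835 and 0.905).

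*Cdkn1a* (ENSMUSG00000023067.7, chr17:29227924-29237667, plus strand) had 1016.5 and 1109 normalized counts in WT, 825 and 973 in *Ezh2* KO, 675 and 978 in *Ezh1/2* dKO, and 759.6 and 812 in *Ezh2* Y726D. Both WT libraries were above all 6 mutant libraries, and the 3 mutant lines overlapped except for *Ezh2* Y726D against *Ezh2* KO. How many of all genes set WT apart from every mutant library was not counted. The log2 fold changes were −0.24 for *Ezh2* KO, −0.39 for *Ezh1/2* dKO and −0.43 for *Ezh2* Y726D (SE 0.182, limma adjusted p = 0.753, 0.291 and 0.317). For *Ezh2* Y726D the 95% interval was −0.84 to −0.03, whose lower end lay above −1.

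*Cdkn1b* (ENSMUSG00000003031.8, chr6:134870419-134875531, plus strand) had 219 and 305 normalized counts in WT, 383 and 299 in *Ezh2* KO, 257 and 239 in *Ezh1/2* dKO, and 237 and 94.0 in *Ezh2* Y726D. *Ezh2* Y726D replicate 2 stood far below the other 7 libraries, and replicate 1 of that line was within the range of WT. The log2 fold change of *Ezh2* Y726D was −0.79 against WT (SE 0.374, limma adjusted p = 0.384), −1.17 against *Ezh2* KO (adjusted p = 0.161) and −0.73 against *Ezh1/2* dKO (adjusted p = 0.464). These values rested on replicate 2, without which they were −0.12, −0.51 and −0.06. That library also had the highest summed level of 5 trophectoderm markers, at 741 normalized counts against 105 to 352 in the other 7. *Cdx2* made up most of it at 440, with *Tfap2c* at 179, *Eomes* at 111, *Hand1* at 10.1 and *Elf5* at 1.12. *Tfap2c* was higher in WT replicate 1 (199) and in *Ezh1/2* dKO replicate 2 (233). The part of these markers in the *Cdkn1b* value was not tested. Without replicate 1 of *Ezh2* Y726D the 3 log2 fold changes of *Cdkn1b* were −1.45, −1.84 and −1.39, from a lone library of that line. The log2 fold change was 0.39 in *Ezh2* KO (adjusted p = 0.810) and −0.06 in *Ezh1/2* dKO (adjusted p = 0.947) against WT.

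**Figure D2:**
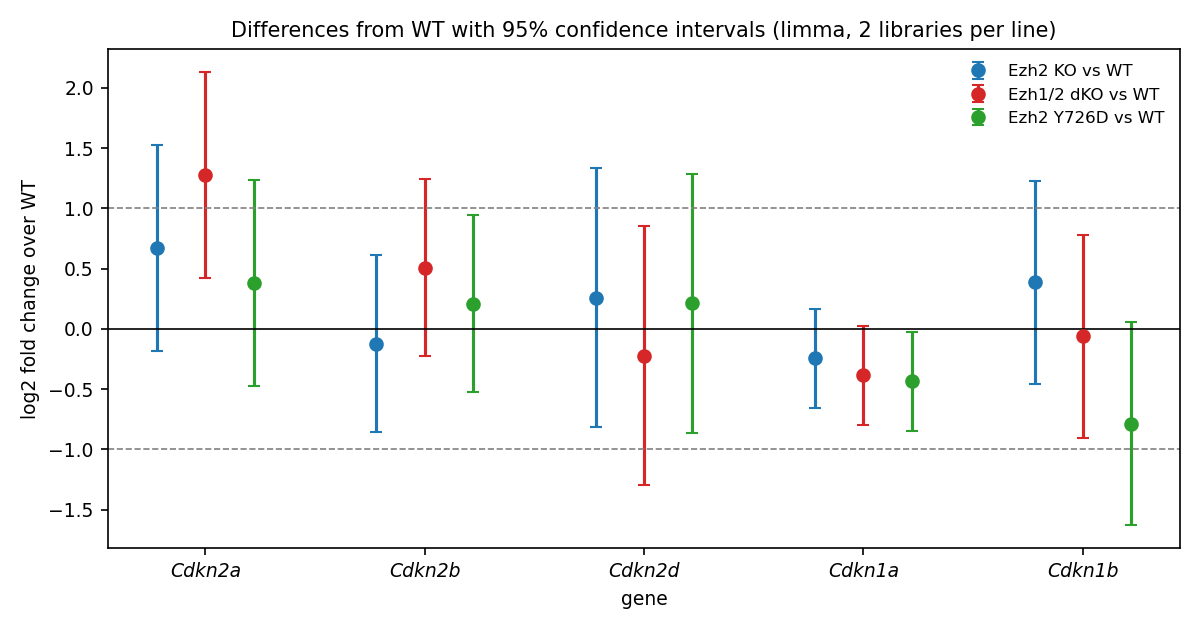
Log2 fold change over WT (vertical axis) of the 5 inhibitors that passed the expression filter (horizontal axis) in the 3 mutant lines, with 95% intervals from limma as bars. Dashed lines mark a log2 fold change of 1 and −1. *Cdkn2a* in *Ezh1/2* dKO is the only point beyond a dashed line, at 1.28 with an interval from 0.42 to 2.13.

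The libraries of *Ezh1/2* dKO and WT did not overlap for 5 of the 6 inhibitors, against 52.5% of all genes tested. For *Ezh2* KO against WT this held for 4 (35.6% of all genes), and for *Ezh2* Y726D against WT for 3 (37.1%). Between mutant lines it held for 5 in *Ezh1/2* dKO against *Ezh2* KO (53.5%), 4 in *Ezh2* Y726D against *Ezh2* KO (44.3%) and 5 in *Ezh2* Y726D against *Ezh1/2* dKO (47.3%). Each of these counts takes in *Cdkn2c*, which failed the expression filter and had no reads in WT. The shares cover tested genes only, so the counts run higher than they would over the tested inhibitors. The median log2 fold change over the 5 tested inhibitors was 0.26 for *Ezh2* KO, −0.06 for *Ezh1/2* dKO and 0.21 for *Ezh2* Y726D against WT, where the median over all genes lay between −0.01 and 0.01. The 3 comparisons share the WT libraries.

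SUZ12 peaks were listed within 5 kb of a start site of *Cdkn2a* and *Cdkn2c* in WT, and at no start site of the other 4 inhibitors in any line. These 2 of 6 genes compare with 14.4% of 22367 protein-coding genes in WT. In *Ezh2* Y726D the same 2 genes had SUZ12 peaks (10.3% of all genes), and none of the 6 had one in *Ezh2* KO (4.22%), *Ezh1/2* dKO (1.03%) or *Ezh2* R685C (8.44%). H3K27me3 peaks were listed at *Cdkn2a*, *Cdkn2b* and *Cdkn2c* in WT (18.8% of all genes), at *Cdkn2c* in *Ezh2* KO (14.8%), and at *Cdkn2a* and *Cdkn2c* in *Ezh2* R685C (24.6%). In *Ezh1/2* dKO (0.103%) and *Ezh2* Y726D (1.35%), H3K27me3 was listed at none of the 6. With 1 library per line there is no test between lines, the read depth behind the lists is unknown, and the spike-in used by the authors does not enter the peak lists.

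**Figure D3:**
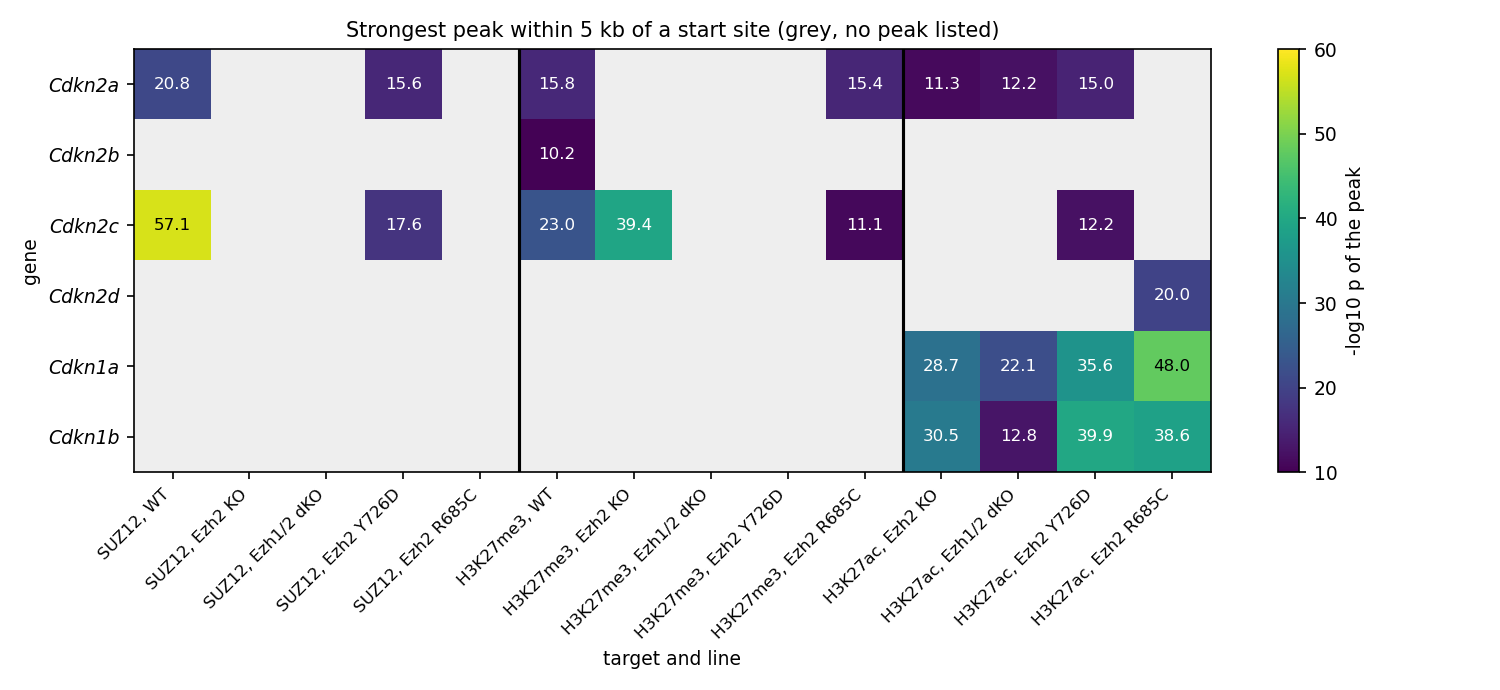
Strength of the strongest listed peak within 5 kb of a start site, as −log10 p (color and number, from 10 upward), for the 6 inhibitors (vertical axis) and each target and line (horizontal axis). Grey marks no listed peak. SUZ12 and H3K27me3 are confined to *Cdkn2a*, *Cdkn2b* and *Cdkn2c* in these lists, whereas *Cdkn1a* and *Cdkn1b* carry H3K27ac in all 4 lines with a list.

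*Cdkn2c* had the strongest SUZ12 peak of the 6 genes. In WT the peak at chr4:109337931-109339333 covered the downstream start and reached −log10 p 57.1, above 82.0% of the 5404 SUZ12 peaks of WT. In *Ezh2* Y726D it spanned chr4:109338281-109339316 at 17.6, above 68.7% of 3366 peaks. The highest points lay 784 and 740 bp upstream of that start, inside the first exon of the longer transcript. H3K27me3 covered the same start in WT at 22.98, above 90.4% of its list, and in *Ezh2* KO at 39.4, above 67.5% of its list. The *Ezh2* R685C list held a peak of 211 bp at 11.1, above 12.6% of that list. The HA-tagged EZH1 re-expressed in *Ezh1/2* dKO cells had a peak at chr4:109337930-109339289, on the interval of the WT SUZ12 peak, and the *Ezh1/2* dKO cells without it had none there. H3K27ac was listed at *Cdkn2c* in *Ezh2* Y726D alone, at chr4:109339513-109339943 over the upstream start, with −log10 p 12.2, above 26.0% of that list.

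A further SUZ12 region lay downstream of *Cdkn2c*, outside the 5 kb window, where its peaks span the annotated start of the long non-coding RNA 9630013D21Rik (chr4:109324134-109330458, minus strand). That RNA was singled out after its position was seen and is not in the count table used here. SUZ12 reached 42.1 in WT, 15.5 in *Ezh2* Y726D and 35.7 in *Ezh2* R685C. H3K27me3 there was 154 in *Ezh2* KO and 160 in *Ezh2* R685C, above 86.5% and 93.4% of their lists. In WT it was at most 17.3, above 74.4% of that list. HA-EZH1 had a peak at chr4:109329397-109330930. No SUZ12 or H3K27me3 peak was listed there in *Ezh1/2* dKO, and no H3K27me3 peak in *Ezh2* Y726D.

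*Cdkn2a* carried SUZ12 near both ends in WT. Near the Arf start, the WT peak at chr4:88940995-88941819 lay upstream of the gene at −log10 p 20.8, and the *Ezh2* Y726D peak at chr4:88940153-88940487 lay mostly over the first exon at 15.6. These peaks share no base, and their highest points lay 965 bp upstream and 173 bp downstream of the nearest start. H3K27me3 in WT was listed upstream of Arf at 14.2 and in the intron 3′ of the Ink4a start at 15.8. In the exon that the Ink4a and Arf transcripts share, the WT list held SUZ12 at 27.6. H3K27me3 there was 18.4 in WT, 17.8 in *Ezh2* KO and 59.99 in *Ezh2* R685C, above 78.9%, 45.9% and 84.3% of their lists. HA-EZH1 had a peak in that exon, and *Ezh1/2* dKO and *Ezh2* Y726D had none of these. The shared exon lies just beyond 5 kb from the Ink4a start, so *Ezh2* KO counts as free of H3K27me3 at *Cdkn2a* start sites although its shared exon carried a peak. At the Ink4a start itself, *Ezh2* R685C alone had H3K27me3, at 15.4, covering 115 bases of the printed promoter.

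H3K27ac upstream of the Arf start was listed at 11.3 for *Ezh2* KO, 12.2 for *Ezh1/2* dKO and 12.2 for *Ezh2* Y726D, where a further peak, partly over the first exon, reached 15.02. No H3K27ac peak was listed at *Cdkn2a* in *Ezh2* R685C. These peaks were stronger than 17.1% to 47.5% of their lists. The *Ezh2* KO peak lay 529 to 168 bp upstream of the first annotated base and took in 49 bases of the printed Arf promoter. The *Ezh1/2* dKO peak lay 614 to 247 bp upstream.

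**Figure D4:**
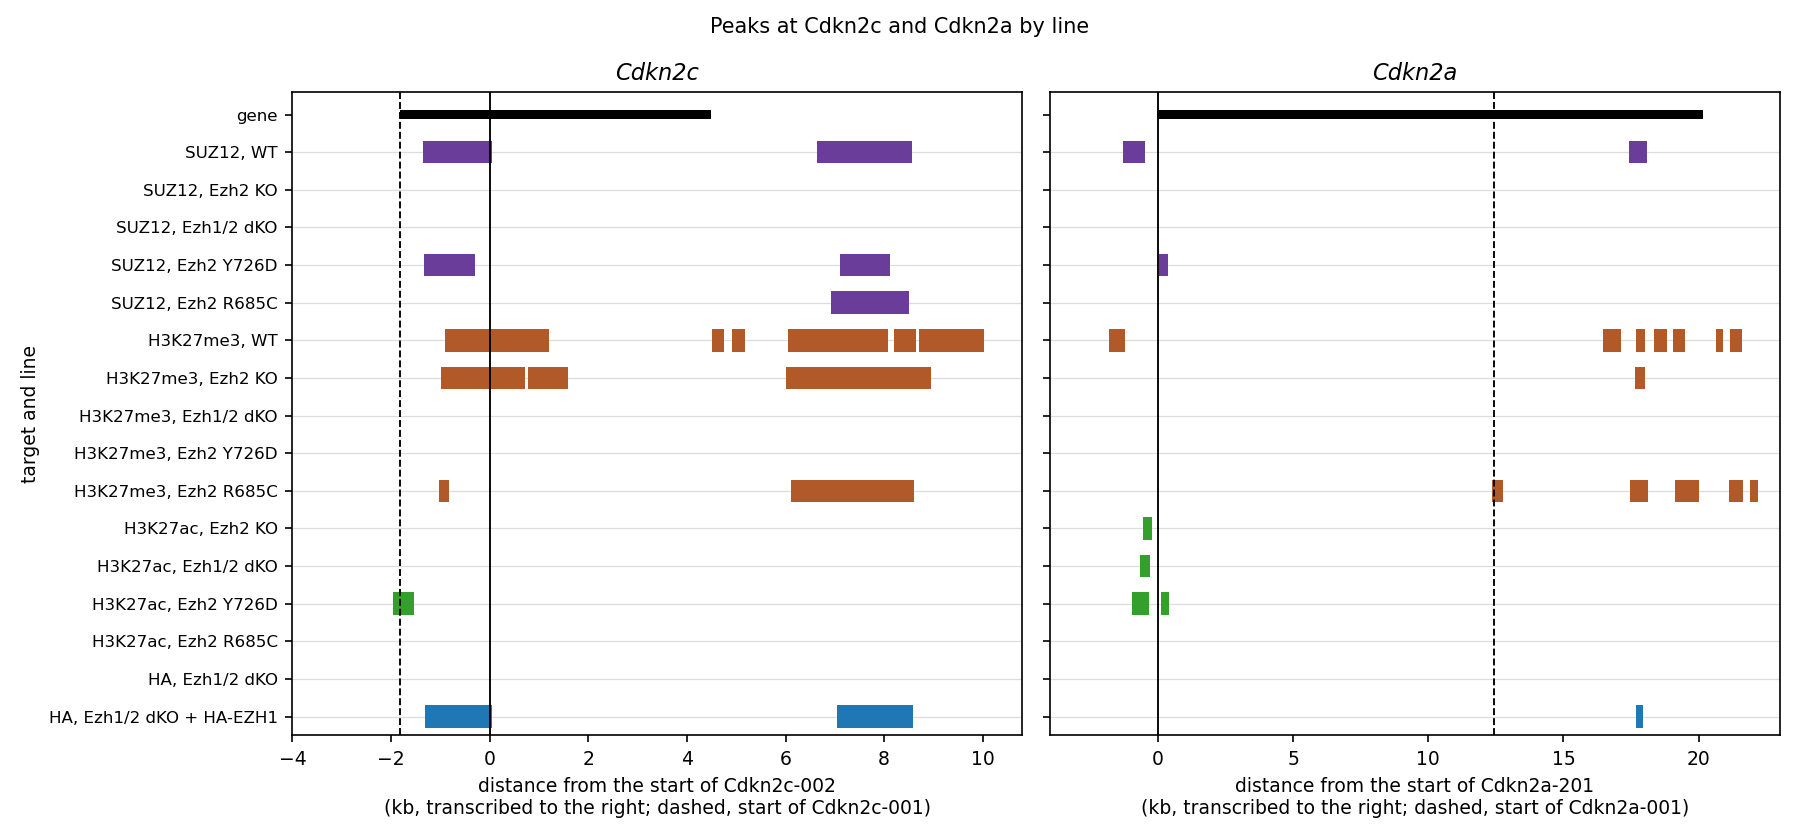
Listed peaks (colored blocks) along *Cdkn2c* (left) and *Cdkn2a* (right) for each target and line (vertical axis), by distance in kb from the start of Cdkn2c-002 and of Cdkn2a-201, the Arf transcript (horizontal axis, transcribed to the right). The black bar is the gene, and the dashed line is the other start, that of Cdkn2c-001 or of the Ink4a transcript Cdkn2a-001. SUZ12 in *Ezh2* Y726D overlies the WT block at *Cdkn2c* but not at *Cdkn2a*, and H3K27me3 lanes are empty in *Ezh1/2* dKO and *Ezh2* Y726D.

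*Cdkn2b*, next to *Cdkn2a* with a gap of 11640 bp between the genes, had few listed peaks. Its only H3K27me3 peak, in WT, lay in the intron 2289 to 2569 bp past the start at −log10 p 10.2, stronger than 0.931% of the list. HA-EZH1 had a peak of 200 bp that ran from the intron into the first exon by 39 bases, and SUZ12 and H3K27ac had none in any line. Open chromatin by ATAC-seq was listed within 5 kb of every inhibitor's start in the 4 lines with a list. These lists were wide, covering a median of 33.2% to 37.4% of such windows over all genes. The share of all genes with a listed region was not counted. At *Cdkn2b* the strongest region was 3.15 for WT, 4.02 for *Ezh2* KO, 2.60 for *Ezh1/2* dKO and 2.02 for *Ezh2* Y726D (−log10 p), above 98.1%, 98.2%, 96.0% and 67.7% of all genes. The medians over all genes were 1.76 to 1.84. The strongest region within 5 kb of the main start of *Cdkn1a*, at 1.74 to 1.94, lay near them.

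*Cdkn1a* and *Cdkn1b* carried H3K27ac in all 4 lines with a list and no H3K27me3 in any, while H3K27ac of WT was not analysed here. Together with *Cdkn2a* they made 3 of 6 in *Ezh2* KO (37.9% of all genes) and in *Ezh1/2* dKO (28.7%), and with *Cdkn2c* 4 of 6 in *Ezh2* Y726D (47.1%). In *Ezh2* R685C the 3 were *Cdkn1a*, *Cdkn1b* and *Cdkn2d* (46.0%). At *Cdkn1a* the strongest peak, at or just past the main start, was 28.7 in *Ezh2* KO, 22.1 in *Ezh1/2* dKO, 35.6 in *Ezh2* Y726D and 48.0 in *Ezh2* R685C. A separate H3K27ac region about 8 kb upstream was 28.4, 27.9, 48.4 and 70.5 in the same order. At *Cdkn1b* the strongest peak was 30.5, 12.8, 39.9 and 38.6. *Ezh1/2* dKO had the lowest of the 4 values at each of these 3 sites, and its list was also the shortest, at 17618 peaks against 25483 to 41185. Whether list length accounts for that order was not tested.

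The *Cdkn2d* count of 1 H3K27ac peak, in *Ezh2* R685C, came from a peak at chr9:21091143-21091841, which lies past the 3′ end of *Cdkn2d* inside the neighboring gene *Kri1*. *Cdkn2d* itself had no SUZ12, H3K27me3 or HA peak in any line. The HA peak at *Cdkn1a* was listed both with HA-EZH1 and in *Ezh1/2* dKO cells without it. With HA-EZH1, 3 of 6 genes had a peak (11.0% of all genes), and without it 1 had (2.90%). Beyond 5 kb, *Ezh2* Y726D had a weak SUZ12 peak of 11.6 downstream of *Cdkn1b*.

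Lower methylation states were listed as broad regions with weak p-values, from 0.0987 downward, and are given as descriptions. In *Ezh2* KO an H3K27me2 region of 12114 bp (chr4:109326879-109338992) covered the downstream start of *Cdkn2c*, the 3′ part of the gene and the downstream SUZ12 region. It did not reach the upstream start of *Cdkn2c*. Its −log10 p was 6.04, above 95% of all promoters in that list. Within 5 kb of the Ink4a start the strongest H3K27me2 region of *Ezh2* KO was 3.37, above 85.0%. Promoters without a listed region count as weaker in these shares, and the median over promoters in that list was 0. *Cdkn1a* had an H3K27me1 region of 5462 bp in WT (chr17:29232653-29238114), at 2.85 above 88.0% of promoters, which covered the 3′ part of the gene. Within 5 kb of its main start *Ezh2* KO had none. The strongest regions there were 1.51 in *Ezh1/2* dKO and 1.54 in *Ezh2* Y726D, above 70.4% and 71.0%. By western blot the paper reports H3K27me1 as lost in both of these lines, so such weak regions need not be signal. The H3K27me1 list of *Ezh2* Y726D held no region on the chromosomes of *Cdkn2a*, *Cdkn2b*, *Cdkn2c* and *Cdkn1b* and was not used for them.

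The other genes of the pathway were counted from lists. Of the other inhibitors, *Cdkn3* was not called in any comparison, and *Cdkn1c*, the imprinted gene of p57, was not called against WT. *Cdkn1c* had 32.0 and 26.96 normalized counts in WT, 6.27 and 5.81 in *Ezh2* KO, 106 and 32.9 in *Ezh1/2* dKO, and 63.3 and 22.4 in *Ezh2* Y726D. The *Ezh2* KO libraries were the lowest, and the replicates of each other mutant line lay far apart. Against *Ezh2* KO, *Cdkn1c* was higher in *Ezh1/2* dKO by 3.10 on the log2 scale (limma adjusted p = 0.0418) and in *Ezh2* Y726D by 2.46 (adjusted p = 0.0896).

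Of 17 cyclins and kinases, 16 were tested, and 1 rose and 1 fell in *Ezh1/2* dKO against WT. *Ccnd2*, which encodes cyclin D2, a partner of CDK4 and CDK6, had 141 and 36.6 normalized counts in WT and 523 and 504 in *Ezh1/2* dKO (log2 fold change 2.81, limma adjusted p = 0.0358). *Cdk6*, a kinase that INK4 proteins bind, fell from 202.8 and 269.6 in WT to 105.5 and 77.2 in *Ezh1/2* dKO (log2 fold change −1.36, adjusted p = 0.0375). None of the 16 was called in *Ezh2* KO or *Ezh2* Y726D against WT. None of the 13 RB and E2F genes, which the CDKs act on, was called in any of the 6 comparisons by limma.

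Of 19 genes of p53 and its targets, 18 were tested. *Pmaip1*, which encodes the pro-apoptotic protein NOXA, had 85.4 and 99.2 normalized counts in WT, 81.6 and 221 in *Ezh2* KO, 495 and 607 in *Ezh1/2* dKO, and 460.1 and 533 in *Ezh2* Y726D. It rose by a log2 fold change of 2.56 in *Ezh1/2* dKO (limma adjusted p = 0.0159) and 2.41 in *Ezh2* Y726D (adjusted p = 0.0220). *Perp*, a membrane protein gene induced by p53, rose in *Ezh2* Y726D by 1.42 (adjusted p = 0.0190). In *Ezh1/2* dKO it was 1.99-fold higher than in WT, just short of the log2 limit of 1, and was not called. The remaining tested genes of this list were not called against WT, and *Cdkn1a*, the best known p53 target, was not either.

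Of 15 regulators of the *Cdkn2a* locus, 14 were in the table. *Hmga2*, which encodes a chromatin protein known to lower *Cdkn2a* products, had 179 and 220.5 normalized counts in WT and 370.3 to 500.2 in the 6 mutant libraries. It rose in *Ezh2* KO by 1.16 (limma adjusted p = 0.0568), in *Ezh1/2* dKO by 1.02 (adjusted p = 0.0315) and in *Ezh2* Y726D by 1.16 (adjusted p = 0.0249). *Bmi1*, a PRC1 subunit that represses the locus in fibroblasts, rose in *Ezh1/2* dKO by 1.41 (adjusted p = 0.0391). *Cbx8*, a chromobox protein of PRC1, rose in *Ezh1/2* dKO by 3.36 (adjusted p = 0.0325) and in *Ezh2* Y726D by 2.99 (adjusted p = 0.0545). In fits of only the 4 libraries compared, the *Hmga2* call in *Ezh2* KO was lost, as were both locus-regulator calls and 1 of 2 p53-list calls in *Ezh2* Y726D. Without WT replicate 1, 1 of the 3 locus-regulator calls in *Ezh1/2* dKO remained, and without WT replicate 2, 1 of the 2 cyclin and kinase calls. Without either *Ezh1/2* dKO library, none of the pathway calls of *Ezh1/2* dKO against WT remained, and the calls over all genes dropped from 557 to 9 without replicate 1 and to 3 without replicate 2.

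The genes next to the 6 inhibitors, *Mtap*, *Rnf11*, *Faf1*, *Kri1*, *Ap1m2*, *Srsf3*, *Rab44*, *Gpr19* and *Apold1*, were not called in any of the 6 comparisons by limma, and the neighbor *Dmrta1* was below the minimum mean and not tested. Markers of other cell types were uneven between the lines. The summed level of 6 primitive endoderm markers was 20.01 to 35.6 normalized counts in WT, 10.5 to 30 in *Ezh2* KO, 145 to 170.5 in *Ezh1/2* dKO and 55.9 to 63.3 in *Ezh2* Y726D. Of 6 fibroblast markers 4 were in the table, with sums of 4.81 to 12.01 in WT, 13.5 to 16.7 in *Ezh2* KO, 103 to 116 in *Ezh1/2* dKO and 86.1 to 88.3 in *Ezh2* Y726D. *Thy1* made up most of each sum, and the other members, *Col1a1*, *Col1a2* and *Lum*, together stayed between 0 and 15.1 in every library. The sums of 5 trophectoderm markers overlapped between all 4 lines, at 162 to 309 in WT, 105 to 224 in *Ezh2* KO, 189 to 352 in *Ezh1/2* dKO and 141 to 741 in *Ezh2* Y726D. Those of 4 markers of two-cell-like cells were 282 to 666 in WT, 27.1 to 29.3 in *Ezh2* KO, 691 to 961 in *Ezh1/2* dKO and 80.2 to 129.8 in *Ezh2* Y726D. Against WT, limma called *Dab2* and *Gata4* of the endoderm list higher in *Ezh1/2* dKO, *Thy1* of the fibroblast list higher in *Ezh1/2* dKO and *Ezh2* Y726D, and *Zscan4c* and *Zscan4d* of the two-cell-like list lower in *Ezh2* KO and *Ezh2* Y726D. Their part in the levels of the inhibitors was not tested.

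The genes whose levels ran most like those of an inhibitor over the 8 libraries, among 11413 genes compared, are given as descriptions. For *Cdkn2a* they were *Guca1a* (r = 0.969) and *Tbc1d32* (r = 0.965), and for *Cdkn2b* *Zfp711* (r = 0.970) and *Man1c1* (r = 0.966). For *Cdkn1b* they were Gm16039 (r = 0.994) and *Bphl* (r = 0.988), and for *Cdkn1a* *Med18* (r = 0.932) and *Fkbpl* (r = 0.931). For *Cdkn2d* they were *Sdad1* (r = 0.981) and *Cxadr* (r = 0.964). The 8 points share 4 lines and 1 normalization. Only genes with a mean of at least 20 normalized counts were compared, so *Cdkn2c* and *Cdkn2d* could not appear as similar genes. None of the other inhibitors was among the 3 most similar genes of another, and lower ranks were not examined.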

How the data were processed

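The authors deposited normalized counts, made with TopHat, Picard, HTSeq-count without strand and DESeq2 from SMART-seq RNA libraries, and ChIP-seq and ATAC-seq regions called with MACS2 on Bowtie alignments to mm9 and given with −log10 p-values. The deposited normalized signal returned whole reads for 100% of values within 0.001 read. The SUZ12, H3K27me3 and H3K27ac lists hold peaks with p of at most 1e-10, the HA lists carry no p, and the ATAC-seq, H3K27me1 and H3K27me2 lists hold weaker regions. No per-sample column was left unmapped.

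Here, limma 3.58.1 (R 4.3.3, trend) was run on log2(normalized count + 1) for genes with a mean of at least 5, with all 8 libraries and Benjamini-Hochberg adjustment. edgeR 4.0.16 and DESeq2 1.42.0 on the recovered reads were alternatives. The SE and fold changes are on the log2(count + 1) scale, which understates low genes. Peaks counted for a gene if they shared at least 1 bp with 5 kb on either side of an annotated start (GENCODE, mm9). On simulated data for *Ezh1/2* dKO against WT, 197 of 200 genes changed 4-fold were recovered among 13851, with 8 false calls. The changed genes were drawn from those with a mean of at least 20, and the same spread was assumed for every gene. Smaller differences, such as those of the inhibitors, were not simulated, so this recovery does not apply to them. Replicates of every line differed by more than counting noise (chi-square per gene 3.90 to 11.6).

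The named genes were the 6 inhibitors, *Ezh1* and *Ezh2*, and genes of the pathway lists called against WT. The members and lists were chosen with earlier results of these data known. RING1B, H2AK119ub, EZH2 rescue and drug-treated libraries were not used here.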

Additional observations from a re-analysis of the deposited data

Results flagged for a closer look

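Some genes of the pathway lists differed between mutant lines when the lines were compared directly by limma. Against *Ezh2* KO, *Ezh1/2* dKO was higher for *Cdkn1c* by 3.10 on the log2 scale (adjusted p = 0.0418), for *Ccnd2* by 3.72 (adjusted p = 0.0113), for *Pmaip1* by 2.02 (adjusted p = 0.0308) and for *Cbx8* by 3.85 (adjusted p = 0.0185). Against *Ezh2* KO, *Ezh2* Y726D was higher for *Cdkn1c* by 2.46 (adjusted p = 0.0896), for *Ccnd2* by 2.56 (adjusted p = 0.0499), for *Perp* by 1.08 (adjusted p = 0.0412), for *Pmaip1* by 1.87 (adjusted p = 0.0430) and for *Cbx8* by 3.48 (adjusted p = 0.0308). Against *Ezh1/2* dKO, *Ezh2* Y726D was higher for *Cdk6* by 1.33 (adjusted p = 0.0641). In each of these 10 comparisons both libraries of the first line were above both of the second. The genes were picked for being called, so this separation is no further evidence. Over all genes tested it held for 26.6% in *Ezh1/2* dKO against *Ezh2* KO. The shares were 22.2% in *Ezh2* Y726D against *Ezh2* KO and 22.1% against *Ezh1/2* dKO. None of the 5 tested inhibitors was called between mutant lines by limma. The limma unadjusted p was under 0.05 for *Cdkn1b* in *Ezh2* Y726D against *Ezh2* KO and for *Cdkn2a* in *Ezh2* Y726D against *Ezh1/2* dKO.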

How the results depend on the processing

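Of 114 alternatives for the count of inhibitors called, 106 gave 0 and 8 gave 1. For *Ezh1/2* dKO against WT the count was 1 (*Cdkn2c*) with no filter on low values. For *Ezh2* Y726D against *Ezh2* KO it was 1 (*Cdkn1b*, log2 fold change −1.03, adjusted p = 0.0765) with DESeq2. Leaving out 1 library at a time, the count ran from 0 to 1 for *Ezh1/2* dKO against WT (*Cdkn2a*) and for *Ezh2* Y726D against WT, *Ezh2* KO and *Ezh1/2* dKO (*Cdkn1b*), and was 0 elsewhere. The replicate block called 0 inhibitors in each comparison. No label ties equal replicate numbers together, and same-numbered libraries deviated with r from −0.41 to −0.07 in the 3 pairs of lines with WT and from 0.22 to 0.29 in the 3 pairs of mutant lines. Of 30 log2 fold changes of inhibitors, 5 changed sign under some alternative, none of them called. Over all genes, with all 8 libraries or the 4 compared, the calls ran from 28 to 144 for *Ezh2* KO against WT, from 285 to 689 for *Ezh1/2* dKO against WT and from 32 to 479 for *Ezh2* Y726D against WT, and with the replicate block they were 34, 514 and 330. Between mutant lines they ran from 176 to 1181 (*Ezh1/2* dKO against *Ezh2* KO), 228 to 568 (*Ezh2* Y726D against *Ezh2* KO) and 103 to 328 (*Ezh2* Y726D against *Ezh1/2* dKO). Leaving out 1 library gave wider ranges, of 6 to 135, 3 to 733 and 156 to 546 against WT, and 53 to 665, 98 to 962 and 14 to 514 between mutant lines. The lowest came without *Ezh2* KO replicate 2 for *Ezh2* KO against WT and *Ezh2* Y726D against *Ezh2* KO, and without an *Ezh1/2* dKO library elsewhere. Quantile normalization split the *Ezh1/2* dKO calls into 290 higher and 129 lower, against 503 and 54. Of 84 alternatives for the peak counts, 20 differed from the reported count, 11 of them by over 1.5 times. At p of at most 1e-20, SUZ12 in *Ezh2* Y726D gave 0, H3K27me3 gave 1 in WT and 0 in *Ezh2* R685C, and H3K27ac gave 1 in *Ezh1/2* dKO and 2 in each other line, without *Cdkn2a* in any. With lists of equal length, SUZ12 in WT gave 1, H3K27me3 gave 2 in WT (without *Cdkn2b*) and 0 in *Ezh2* R685C, and H3K27ac gave 2 in *Ezh2* KO and in *Ezh2* Y726D, in both without *Cdkn2a*. A window of 1 kb gave 1 for H3K27me3 in WT, and windows of 1 and 2.5 kb gave 2 for H3K27ac in *Ezh2* R685C. Gene bodies with 10 kb on each side gave 1 for SUZ12 in *Ezh2* R685C and 3 in *Ezh2* Y726D, 2 for H3K27me3 in *Ezh2* KO, and 4 for H3K27ac in *Ezh2* KO and in *Ezh2* R685C. At 3604120 to 5181550 reads per library, *Cdkn2c* had 0 to 9 reads.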
